A study of Mus musculus with 20 samples.

Results

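Sham-operated left kidneys of 5 male Kdm6afl/Y Pax8Cre+ mice (KDM6ATubKO, here TubKO) were compared with those of 5 male Pax8Cre+ mice (KDM6ACtrl, here Ctrl), which makes 10 of the 20 kidneys of the series. The other 10 came from mice with unilateral ureteral obstruction (UUO), 5 of each genotype. Members were chosen by the genotype and the surgery in the sample labels, and each kidney gave 1 RNA library. All mice carried the Pax8-Cre transgene, which makes Cre recombinase in the tubule epithelium of the kidney, and Ctrl mice lacked the floxed Kdm6a allele. The thyroid gland also expresses Pax8, and the study saw no difference in plasma thyroid stimulating hormone between the genotypes. The sham operation opened the flank without tying the ureter, and kidneys were taken 7 days later. Ctrl mice were matched to TubKO mice for age, and the age itself is not given in the sources used here. RNA came from left kidney tissue with no sorting of cells, so every value averages over recombined tubule cells and cells without Cre, and fewer cells of a type cannot be told apart from less RNA per cell. Values are FPKM, fragments per kilobase of transcript scaled to the mapped fragments of a library, for 13842 genes. Mice are numbered 1 to 5 within each group. The identifiers show that some kidneys share a full number, TubKO mice 2 and 3, TubKO mice 4 and 5, Ctrl mice 1 to 3 and Ctrl mice 4 and 5, and what the number stands for is not given in the sources used here. The tests treat the 10 kidneys as independent.

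KDM6A, also called UTX, is a demethylase that takes methyl groups off lysine 27 of histone H3, a mark that Polycomb repressive complex 2 writes on silenced genes. It also belongs to the KMT2C and KMT2D complexes, which methylate lysine 4 of histone H3 at enhancers of active genes. The gene lies on the X chromosome, and males have a Y-linked relative, Uty, whose protein has little demethylase activity. Tubule cells, above all those of the proximal tubule, burn fatty acids in their mitochondria and depend on the nuclear receptor PPARα for the enzymes involved. The comparison of sham kidneys asks what the loss of KDM6A in tubule cells does to the kidney transcriptome when there is no obstruction.

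*Kdm6a* itself was lower in the TubKO sham kidneys, with 1.61, 0.862, 1.57, 0.924 and 1.05 FPKM, against 2.33, 2.14, 1.94, 1.76 and 2.10 FPKM in Ctrl sham kidneys. No TubKO kidney reached the lowest Ctrl kidney. The log2 fold change on the log2(FPKM + 1) scale was -0.48 (standard error 0.14), and its limma p adjusted over all genes was 0.0502, just outside the threshold of 0.05. It passed without TubKO mouse 3 (adjusted p 0.049993) or Ctrl mouse 4 (adjusted p 0.0438), and with the length trend described further on removed it was -0.39 (adjusted p 0.159). The floxed part is the exon for the JmjC domain, the catalytic part of the enzyme, while FPKM average over all exons, so the gene value only partly reads the deletion. By immunoblot, the study found less KDM6A protein in TubKO kidney homogenates and none in primary tubule cells from TubKO kidneys. Of 3 *Kdm6a* transcripts in the transcript table, Kdm6a-208 (17 exons) was listed at 0 in all 5 TubKO kidneys and at 3.19, 0.594, 0.410, 0 and 0 FPKM in the Ctrl kidneys. The groups thus overlapped at 0, and the transcript did not pass (exact two-sided permutation p 0.167 over 5 against 5 kidneys, limma adjusted p 0.521). The full-length forms Kdm6a-201 and Kdm6a-202 (29 exons each) overlapped between the groups, with exact two-sided permutation p of 0.310 and 0.905 over 5 against 5 kidneys. In UUO kidneys *Kdm6a* averaged 3.04 ± 0.853 FPKM in TubKO and 2.96 ± 0.634 FPKM in Ctrl (SD, n = 5 each). The difference between the genotype effects in sham and UUO kidneys had an unadjusted limma p of 0.0217 and an adjusted p of 0.234.

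The relatives and partners of KDM6A mostly did not pass the test. Among 12 genes of the KDM6 family and the KMT2C/D complexes, *Kdm6a* included, 1 fell and none rose, with a median log2 fold change of -0.15, against 3.89% of all genes that fell, 1.94% that rose and a median of -0.02. As deposited, 10 of the 12 had a value under 0, against 7634 of all 13842 genes. For 4 of the 12 the TubKO kidneys lay wholly under the Ctrl kidneys, against 4.88% of all genes. The demethylase *Kdm6b* averaged 6.01 ± 0.907 FPKM in TubKO and 6.84 ± 0.926 FPKM in Ctrl kidneys, and *Uty* averaged 2.43 ± 0.207 FPKM in TubKO and 2.60 ± 0.330 FPKM in Ctrl kidneys (SD, n = 5 each). Neither difference passed (adjusted p 0.398 for *Kdm6b* and 0.862 for *Uty*). The gene that fell was *Ncoa6*, a coactivator in the KMT2C/D complexes, at -0.37 (adjusted p 0.0276), and it did not pass once the length trend was removed (-0.26, adjusted p 0.142) or when TubKO mouse 1, 2 or 5 or Ctrl mouse 1 or 5 was left out (adjusted p 0.0504 to 0.0824).

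Against 3.89% of all genes that fell, 1 of 10 measured genes of Polycomb repressive complex 2 fell and none rose. This was *Eed*, the subunit that reads methylated lysine 27, with 3.61, 3.97, 4.23, 4.60 and 3.93 FPKM in TubKO kidneys and 6.02, 5.76, 5.37, 4.83 and 4.75 FPKM in Ctrl kidneys. All 5 TubKO values lay under all 5 Ctrl values, and the log2 fold change was -0.32 (adjusted p 0.0223), or -0.36 (adjusted p 0.0317) with the length trend removed. Leaving out TubKO mouse 1 or 5 or Ctrl mouse 1 or 2 ended this call (adjusted p 0.0681, 0.0632, 0.0624 and 0.0565), as did fitting the sham kidneys alone (0.0606), quantile normalization (0.0650), the number series described further on as a covariate (0.0506) and the F-test written after Ballgown (0.152). Within the higher of these series its value was -0.16. *Ezh2*, the methyltransferase of the complex, stood at 0.669 ± 0.174 FPKM in TubKO and 0.998 ± 0.124 FPKM in Ctrl kidneys (adjusted p 0.0569), and passed only without TubKO mouse 1 (adjusted p 0.0388). *Suz12* passed only without Ctrl mouse 4 (-0.38, adjusted p 0.00717), which had 3.83 FPKM against 9.79 to 11.5 FPKM in the other Ctrl kidneys, and stood at -0.13 with all kidneys (adjusted p 0.775). None of 42 measured Hox and other developmental regulators, a classic group of Polycomb targets, passed in either direction, and their median log2 fold change was 0.06.

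Over all 13842 genes, 269 rose (1.94%) and 539 fell (3.89%) in TubKO sham kidneys at an adjusted p under 0.05. At the threshold of the study, an unadjusted p under 0.05 together with a change of 1.5-fold or more, 89 genes were higher and 107 lower (1.42% together). The 5 TubKO kidneys lay wholly above the 5 Ctrl kidneys for 390 genes (2.82%) and wholly below for 675 (4.88%). Most changes were small: the genes that rose had a median log2 fold change of 0.39, and those that fell a median of -0.35. The counts depended on single kidneys, from 58 that rose and 127 that fell without TubKO mouse 5 to 406 and 684 without Ctrl mouse 4. They also depended on the fit: 113 rose and 157 fell with the 10 sham kidneys alone, 3 and 12 in a per-gene F-test written after Ballgown, and 456 each way with libraries rescaled to their upper quartile, which moved the share of rises to 50% against 33.3%.

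The direction of change followed transcript length. Genes that rose had a median transcript length of 1166 bases and genes that fell one of 5363 bases, against 2981 bases over all genes. Among the shortest 2759 genes, up to 1665 bases, 176 rose and 5 fell, while in the longest 2759, from 4920 bases, 9 rose and 300 fell. The slope of log2(FPKM + 1) on log2 length, relative to the mean over sham kidneys, was -0.0919, -0.0375, -0.0234, -0.0020 and -0.0694 in TubKO kidneys 1 to 5 and 0.0719, 0.0558, 0.0466, -0.0025 and 0.0523 in Ctrl kidneys 1 to 5. Short transcripts thus ran higher in the TubKO libraries, and Ctrl mouse 4 was the exception in its group, with a slope inside the TubKO range. The slopes differed by -0.0897 between the groups (exact two-sided permutation test over 5 against 5 kidneys, p = 0.0159, where 0.0079 is the smallest p such groups allow). The FPKM summed to between 352444 and 387375 in TubKO kidneys and to between 347739 and 360923 in Ctrl kidneys.

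With a linear length trend taken out of each library, 56 genes rose (0.405%) and 131 fell (0.946%), 1.35% together. Of these, 47 of the genes that rose and 122 of those that fell were also called in the deposited values. In both fits and without overlap between the groups, 44 genes rose (0.318%) and 108 fell (0.780%). The 15 genes named by size in each direction were chosen among these, so their lack of overlap is part of the choice. What part of the length trend comes from the genotype and what part from the libraries was not tested, so the main genes that passed are given with their adjusted p once the trend is removed. Of the 15 genes named for the largest rises 13 were shorter than the median transcript, as were 2 of the 15 named for the largest falls. The length used is that of the longest transcript, which for some genes is a transcript of low level. With transcript lengths weighted by FPKM in its place, a choice made after seeing the data, 49 genes rose and 126 fell, and 37 of the 44 and 101 of the 108 passed again. *Col14a1* was among those that did not (adjusted p 0.0526), and *Txnip*, whose groups overlapped, also lost its call (adjusted p 0.0521).

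**Figure D1:**
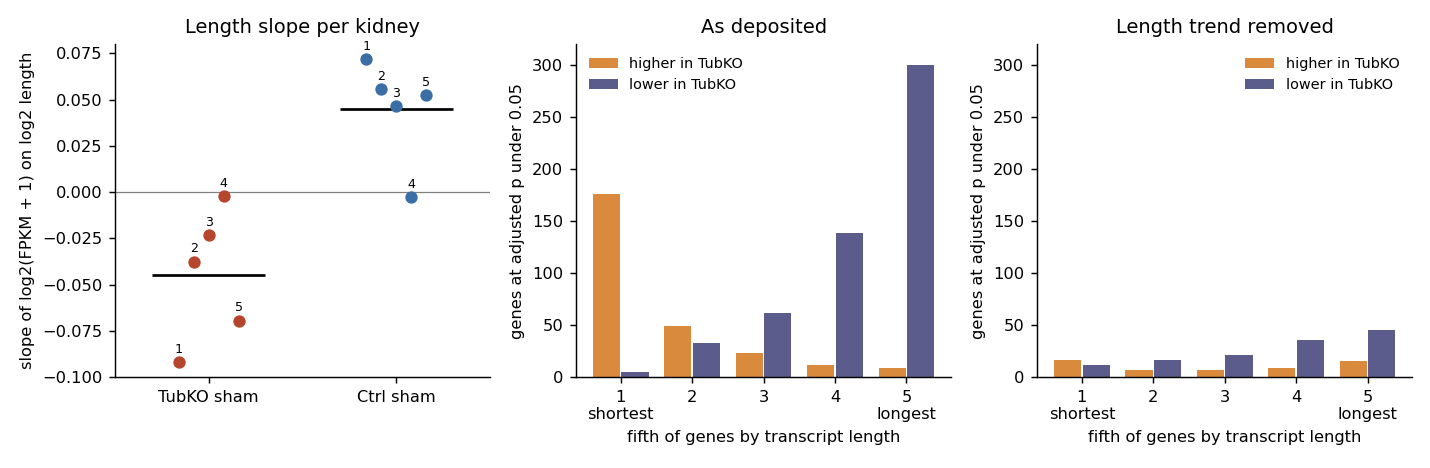
The left panel plots the slope of log2(FPKM + 1) on log2 transcript length for each sham kidney (numbered points, line at the group mean); the other panels plot the number of genes at adjusted p under 0.05 in each of 5 bins of genes by length, as deposited and with the length trend removed. The longest bin held 300 of the genes that fell as deposited and 45 with the trend removed, and the shortest bin 176 and 17 of those that rose.

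PPARα is a receptor for fatty acids that turns on genes of fatty acid uptake and oxidation, and many of its targets are made in the proximal tubule. Of 51 measured genes of PPAR signaling, 3 fell and none rose in TubKO sham kidneys, with a median log2 fold change of -0.17, against 3.89% of all genes that fell. A value under 0 was found for 38 of the 51, against 7634 of all 13842 genes. The 3 were *Ppara* itself and the cytochrome P450 genes *Cyp4a12a* and *Cyp4a12b*. With the length trend removed 2 fell, *Ppara* and *Cyp4a12a*, and 6 fell as deposited without Ctrl mouse 4. The study drew attention to this pathway from these kidneys, so the list is not independent of them.

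*Ppara* (chromosome 15, 85734983 to 85802819, GRCm38) had 3.4, 4.89, 3.93, 5.76 and 2.96 FPKM in TubKO kidneys and 8.50, 7.91, 8.10, 6.05 and 9.84 FPKM in Ctrl kidneys. The highest TubKO kidney, mouse 4, stood just under the lowest Ctrl kidney, also numbered 4. The log2 fold change was -0.82 (standard error 0.17, adjusted p 0.0135), and -0.80 (adjusted p 0.0283) with the length trend removed. Of its 3 transcripts, Ppara-201 was the 1 that passed, at 0.0102, 3.42, 1.70, 0.00834 and 1.92 FPKM in TubKO kidneys and 7.45, 5.01, 7.67, 4.83 and 9.50 FPKM in Ctrl kidneys (adjusted p over all transcripts 0.0145), while Ppara-202 did not pass (adjusted p 0.470). The other receptors of the family did not pass: *Ppard* stood at 3.03 ± 0.567 FPKM in TubKO and 4.05 ± 1.3 FPKM in Ctrl (adjusted p 0.545), and *Pparg* at 0.540 ± 0.0968 FPKM in TubKO and 0.651 ± 0.293 FPKM in Ctrl (adjusted p 0.919). *Ppargc1a*, the coactivator of PPARα that drives mitochondrial genes, averaged 16.3 ± 2.16 FPKM in TubKO and 16.8 ± 1.88 FPKM in Ctrl (adjusted p 0.891).

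*Cyp4a12a* and *Cyp4a12b* encode fatty acid hydroxylases that act on the end of the chain and are the forms of this enzyme known to be higher in male mouse kidney. *Cyp4a12a* (chromosome 4, 115299046 to 115332815) had the largest fall of the genes called in both fits without overlap, with 29.6, 23.5, 16.6, 20.2 and 24.9 FPKM in TubKO kidneys and 59.9, 99.1, 114, 57.7 and 106 FPKM in Ctrl kidneys. The lowest Ctrl kidney had close to double the level of the highest TubKO kidney. The log2 fold change was -1.85 (standard error 0.31, adjusted p 0.00590), and -1.87 (adjusted p 0.0116) with the length trend removed, and the call held with any 1 of the 10 sham kidneys left out (adjusted p 0.00254 to 0.0203). *Cyp4a12b* (chromosome 4, 115411624 to 115439034) had 13.5, 3.28, 10, 5.22 and 5.15 FPKM in TubKO kidneys and 28.2, 17.2, 28.5, 10.5 and 23.5 FPKM in Ctrl kidneys. Here the groups overlapped, through TubKO mouse 1 and Ctrl mouse 4. Its log2 fold change was -1.48 (adjusted p 0.0462, and 0.0754 with the length trend removed), and leaving out any kidney but Ctrl mouse 4 ended the call (adjusted p 0.0533 to 0.114 for those 9).

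The values of the 2 genes are not independent, because their coding sequences are 98.5% identical: 23 of 1524 positions differ, and the longest identical run is 342 bases. Coding bases 644 to 763, counted from the start codon, are the stretch of 120 bases with the most differences and show what separates the copies. They are exonic, on the plus strand of chromosome 4 in GRCm38, read from GENCODE vM21 transcripts, with the 8 positions that differ in capitals.
Cyp4a12a: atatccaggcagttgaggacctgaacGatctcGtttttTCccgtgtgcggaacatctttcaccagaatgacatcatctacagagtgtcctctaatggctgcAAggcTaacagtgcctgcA
Cyp4a12b: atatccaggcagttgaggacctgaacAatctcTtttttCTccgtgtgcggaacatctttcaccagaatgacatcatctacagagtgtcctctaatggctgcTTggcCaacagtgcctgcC
Reads from the long identical runs could go to either copy, so how far each copy fell alone is uncertain.

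A small number of genes for fat synthesis fell. Of 30 measured genes of triglyceride and fatty acid synthesis, 3 fell and none rose, against 3.89% of all genes that fell, and 11 of the 30 had a value above 0 (median -0.04). Of the 3, *Gpam* alone fell with the length trend removed. *Gpam* (chromosome 19, 55069734 to 55099451), the mitochondrial acyltransferase that starts triglyceride synthesis, had 4.21, 6.01, 5.40, 9.19 and 3.95 FPKM in TubKO kidneys and 17.4, 12.1, 13.0, 9.42 and 12.6 FPKM in Ctrl kidneys. The groups stayed apart, with TubKO mouse 4 closest to Ctrl mouse 4. The log2 fold change was -1.07 (standard error 0.19, adjusted p 0.00660), and -1.03 (adjusted p 0.0133) with the length trend removed. The others were *Lpin2*, a phosphatidate phosphatase on the same route, at 1.94 ± 0.547 FPKM in TubKO and 3.65 ± 1.19 FPKM in Ctrl (adjusted p 0.0378, and 0.0892 with the length trend removed), and *Acaca*, the acetyl-CoA carboxylase that starts fatty acid synthesis, at 1.06 ± 0.120 FPKM in TubKO and 1.36 ± 0.0348 FPKM in Ctrl (adjusted p 0.0480, and 0.796 with the length trend removed). Leaving out 7 of the 10 sham kidneys in turn ended the call of *Lpin2* (adjusted p up to 0.103), and 8 that of *Acaca* (adjusted p up to 0.119). *Dgkg*, a kinase of diacylglycerol, was low throughout, at 0.429 ± 0.0975 FPKM in TubKO and 1.45 ± 0.389 FPKM in Ctrl, and fell by 0.77 on the log2 scale without overlap (adjusted p 0.00622, and 0.0138 with the length trend removed).

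Enzymes of fatty acid oxidation did not fall at the threshold. Of 31 measured, 1 rose and none fell, against 1.94% and 3.89% of all genes. A value under 0 was nevertheless found for 25 of the 31, and the median was -0.17. The 1 that rose was *Etfb*, a subunit of the electron carrier that takes electrons from this route, at 263 ± 29.4 FPKM in TubKO and 207 ± 18.0 FPKM in Ctrl (adjusted p 0.0454), and it passed neither with the length trend removed (adjusted p 0.258) nor with any 1 of 7 sham kidneys left out. With the sham kidneys alone *Acot12*, an acyl-CoA thioesterase, was the 1 gene of the list to fall (-0.62, adjusted p 0.0364), and with quantile normalization it was *Acadl*, an acyl-CoA dehydrogenase (-0.34, adjusted p 0.0264), while none rose in either setting; both are named after their values were seen. *Acat3*, an acetyl-CoA acetyltransferase that is not among the 31, had 15.7, 12.9, 18.6, 13.2 and 12.1 FPKM in TubKO kidneys and 31.3, 19.7, 22.4, 23 and 24.1 FPKM in Ctrl kidneys. It fell without overlap between the groups (-0.70, adjusted p 0.00709, and 0.0130 with the length trend removed).

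Among genes tied to pyruvate use in mitochondria, *Pdpr* fell and *Mpc2* rose. *Pdpr* (chromosome 8), a regulator of the phosphatase that switches pyruvate dehydrogenase on, had 1.75, 3.30, 3.14, 3.83 and 2.05 FPKM in TubKO kidneys and 5.95, 6.59, 7.34, 4.26 and 6.72 FPKM in Ctrl kidneys. All 5 TubKO values were under all Ctrl values, and *Pdpr* fell by 0.93 on the log2 scale (adjusted p 0.00733, and 0.0160 with the length trend removed). *Mpc2*, a subunit of the mitochondrial pyruvate carrier, had 39.4, 33.8, 35.6, 32.4 and 36.3 FPKM in TubKO kidneys and 20.5, 24.8, 24.8, 27.8 and 26.5 FPKM in Ctrl kidneys, also without overlap (0.50, adjusted p 0.00432, and 0.0138 with the length trend removed). None of 22 genes of glycolysis and gluconeogenesis, 20 of the tricarboxylic acid cycle or 23 of branched-chain amino acid degradation passed in either direction, with medians of 0.06, 0.02 and 0.01.

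*Txnip*, an inhibitor of thioredoxin and of glucose uptake whose RNA follows cellular glucose, stood at 30.1 ± 4.16 FPKM in TubKO and 61.5 ± 26.1 FPKM in Ctrl kidneys (-0.91, adjusted p 0.0266, and 0.0489 with the length trend removed). The Ctrl kidneys were split, with 98.6, 70.1 and 65.8 FPKM in mice 1 to 3 and 36.7 and 36.1 FPKM in mice 4 and 5, and the TubKO kidneys ran between 26.1 and 36.2 FPKM. The identifiers of Ctrl mice 1 to 3 and TubKO mouse 1 fall in a lower number series and those of the other 6 sham mice in a higher one, and what the series stand for is not given in the sources used here. Among mice of the higher series the *Txnip* value was -0.23, and leaving out TubKO mouse 1 or 5 or Ctrl mouse 1, 2 or 3 ended the call (adjusted p 0.0613 to 0.0743). *Txnip* was the 1 member of 20 fasting and glucocorticoid genes to pass, against 5.84% of all genes that passed in either direction.

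Several genes outside these pathways fell with wide gaps between the groups. *Tcf24* (chromosome 1, 9960163 to 9967932), a transcription factor of the basic helix-loop-helix family, had the lowest adjusted p among the named genes. It stood at 3.32, 3.66, 3.14, 3.50 and 3.26 FPKM in TubKO kidneys and at 7.75, 7.27, 7.74, 6.02 and 6.28 FPKM in Ctrl kidneys. The TubKO kidneys varied little and lay far under the Ctrl kidneys, and the log2 fold change was -0.87 (standard error 0.09, adjusted p 7.07e-05), or -0.82 (adjusted p 0.000120) with the length trend removed. Both of its transcripts were lower: Tcf24-201 ran from 4.28 to 5.37 FPKM in TubKO and from 8.10 to 10.3 FPKM in Ctrl, and Tcf24-202 from 0.282 to 0.448 FPKM in TubKO and from 0.668 to 1.38 FPKM in Ctrl.

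*Ncoa2* (chromosome 1, 13139105 to 13374083), a coactivator of nuclear receptors, lies on the same chromosome and was chosen after its values were seen, because it had the lowest adjusted p in the strictest setting, which removed the length trend and fitted the 10 sham kidneys alone (0.000219). It had 0.635, 0.929, 1.19, 1.09 and 0.768 FPKM in TubKO kidneys and 3.41, 4.12, 3.83, 3.32 and 3.70 FPKM in Ctrl kidneys, a log2 fold change of -1.29 (adjusted p 0.0214, and 0.0581 over all 20 kidneys with the length trend removed). The transcript table split this value. Ncoa2-202, of 8006 bases, was listed at 0 in all 5 TubKO kidneys and between 5.56 and 7.0 FPKM in the Ctrl kidneys, whereas Ncoa2-201, of 4897 bases, ran from 1.60 to 3.31 FPKM in TubKO and from 0.556 to 1.69 FPKM in Ctrl. The shorter transcript was thus not lower in TubKO kidneys, and its groups overlapped. A listed 0 can also be a failed estimate, and in UUO kidneys Ncoa2-202 was at 0 in all 5 TubKO and in 3 of 5 Ctrl kidneys, with the other 2 between 6.41 and 7.46 FPKM.

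**Figure D2:**
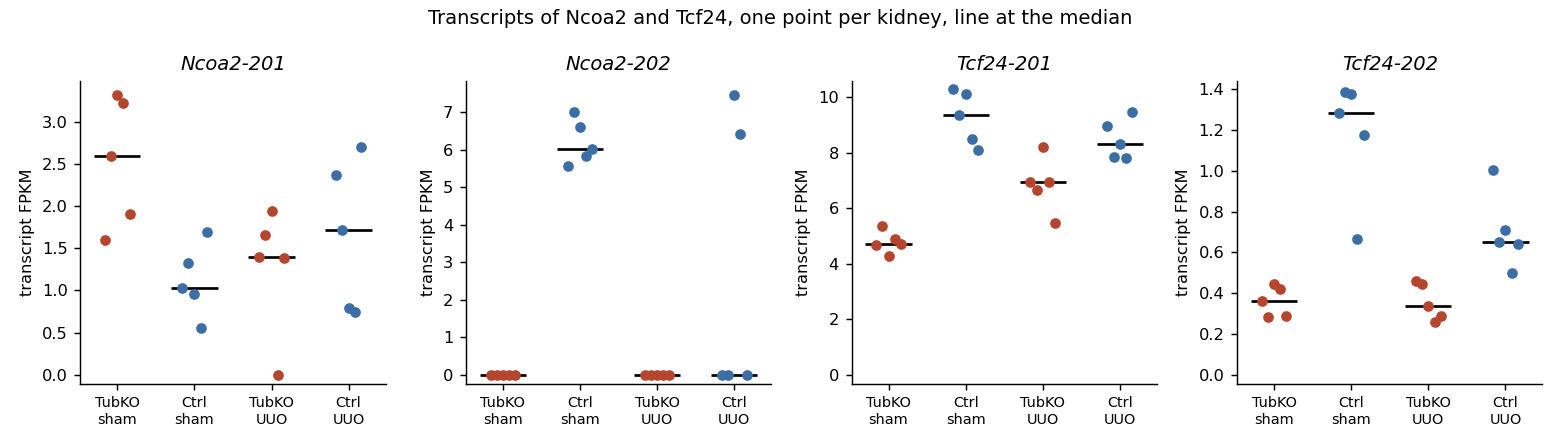
FPKM of 2 transcripts of Ncoa2 and 2 of Tcf24 in each of the 20 kidneys by group, with a line at the median. Ncoa2-202 lies at 0 in all 5 TubKO sham kidneys and between 5.56 and 7.0 FPKM in Ctrl sham kidneys, while both Tcf24 transcripts are lower in TubKO sham kidneys than in Ctrl sham kidneys without overlap.

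Among genes for membrane and vesicle proteins, *Slc29a3*, a nucleoside transporter of lysosomes, had 14.5, 14.7, 13.6, 13.3 and 12.1 FPKM in TubKO kidneys and 21.4, 23.7, 30.1, 17.1 and 22.2 FPKM in Ctrl kidneys (-0.69, adjusted p 0.00432, and 0.0130 with the length trend removed). *Igf2r*, the receptor that carries lysosomal enzymes and binds insulin-like growth factor 2, had 9.99, 11.7, 10.3, 10.4 and 8.31 FPKM in TubKO kidneys and 17.1, 16.1, 17.7, 14.1 and 18.5 FPKM in Ctrl kidneys (-0.67, adjusted p 0.00398, and 0.0130 with the length trend removed). In both genes every TubKO kidney was under every Ctrl kidney. *Zc3h12c*, a member of a family of RNA-degrading enzymes that restrain inflammation, fell by 0.61 (adjusted p 0.00239, and 0.00873 with the length trend removed), at 2.13 ± 0.333 FPKM in TubKO and 3.78 ± 0.353 FPKM in Ctrl. *Alg10b*, a glucosyltransferase of N-glycan assembly, stood at 2.54 ± 0.783 FPKM in TubKO and 5.17 ± 0.848 FPKM in Ctrl (-0.82, adjusted p 0.0104, and 0.0243 with the length trend removed). The remaining named falls, *Lrp12*, *Sgtb* and *Zfp871*, had log2 fold changes of -0.82, -0.89 and -0.79, and each kept its call with the length trend removed and with any 1 sham kidney left out. *Sgtb* differed within Ctrl as *Txnip* did, with 3.76, 4.24 and 2.98 FPKM in mice 1 to 3 and 1.41 and 1.95 FPKM in mice 4 and 5, against 0.906 to 1.18 FPKM in TubKO kidneys, and its value among mice of the higher series was -0.39.

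*Casc4* had the second largest named fall, at 1.98, 2.53, 3.49, 2.88 and 1.92 FPKM in TubKO kidneys and 6.88, 5.54, 15.4, 8.66 and 15.9 FPKM in Ctrl kidneys (-1.60, adjusted p 0.0193, and 0.0410 with the length trend removed). Its transcripts were uneven within Ctrl: Casc4-202 was listed at 3.25, 0, 18.3, 10.9 and 20.3 FPKM there, against 0 in 4 TubKO kidneys and 1.06 FPKM in the other, and no *Casc4* transcript passed (lowest adjusted p 0.0839). Leaving out TubKO mouse 1 or 5 ended the gene's call (adjusted p 0.0567 and 0.0576).

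The X chromosome around *Kdm6a* did not stand out in number. Of 42 genes within 10 Mb of it, 1 rose and 2 fell (7.14%), against 5.84% of all genes, and on the whole X chromosome 6 of 439 rose and 23 fell. *Ddx3x*, an RNA helicase gene on the X chromosome, was named after its values were seen. It had 30.7, 37.2, 36, 38.2 and 39.3 FPKM in TubKO kidneys and 61.9, 63.1, 51.9, 42.0 and 48.0 FPKM in Ctrl kidneys, wholly lower in TubKO (-0.53, adjusted p 0.0123, and 0.0317 with the length trend removed). *Eif2s3x*, the X-linked gene of a translation initiation factor and also named after its values were seen, averaged 20 ± 2.88 FPKM in TubKO and 27.7 ± 1.99 FPKM in Ctrl (-0.46, adjusted p 0.00835, and 0.0196 with the length trend removed).

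**Figure D3:**
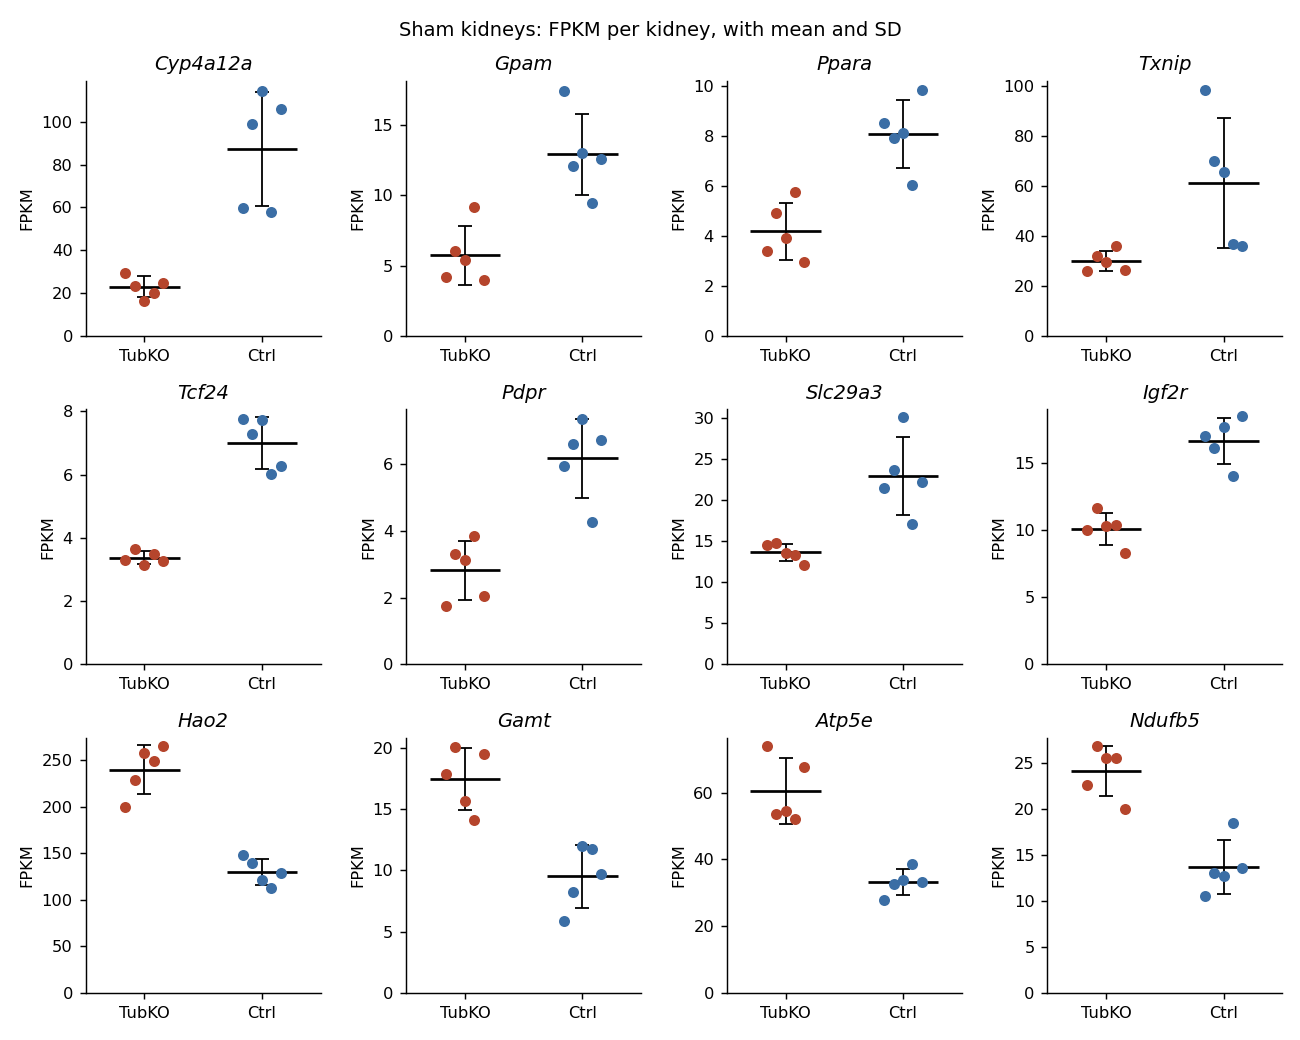
FPKM of 12 genes in each TubKO and Ctrl sham kidney, with group mean and SD (n = 5 each) on axes that start at 0. The 5 TubKO points lie wholly under the 5 Ctrl points for 7 of the 8 genes that fell, the exception being Txnip, where TubKO mouse 4 (36.2 FPKM) overlaps Ctrl mouse 5 (36.1 FPKM), and wholly above them for the 4 that rose, Hao2, Gamt, Atp5e and Ndufb5. All genes shown but Txnip were named by a rule that required no overlap between the groups.

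Small subunits of the mitochondrial respiratory chain made up the clearest group among the genes that rose, and they are also short transcripts. The chain passes electrons through complexes I to IV and uses the resulting proton gradient to make ATP in ATP synthase. In the deposited values 41 of 79 measured subunits rose and none fell, against 1.94% of all genes that rose: 20 of 37 of complex I, 12 of 25 of complexes II to IV and 9 of 17 of ATP synthase. Their median log2 fold change was 0.28. With the length trend removed 11 rose, 7 of complex I, 1 of complexes II to IV and 3 of ATP synthase, against 0.405% of all genes, and the median was 0.15. The count ran from 16 without TubKO mouse 1 to 46 without Ctrl mouse 4, and 1 subunit rose in the F-test written after Ballgown. The median transcript length was 971 bases for complex I, 765 for complexes II to IV and 809 for ATP synthase.

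Some ribosomal protein genes, also short, rose as deposited. Over all genes 1.94% rose and 3.89% fell as deposited, and 0.405% rose with the length trend removed. Of 76 cytosolic ribosomal proteins, with a median length of 896.5 bases, 21 rose and none fell, and 1, *Rps15a*, rose with the length trend removed (0.43, adjusted p 0.0435). Their median log2 fold change was 0.28 as deposited and 0.12 with the trend removed. Of 76 mitochondrial ribosomal proteins 11 rose, and 2, *Mrpl11* and *Mrps16*, rose with the trend removed. These 3 ribosomal genes are named for passing in both fits, after their values were seen. Of 31 proteasome genes 2 rose and 1 fell, 13 had a value under 0, and the median was 0.04 as deposited and -0.05 with the trend removed, when *Psmb4* alone passed (0.29, adjusted p 0.0460).

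The subunits that passed in both fits differed in size of effect. *Atp5e*, the epsilon subunit of ATP synthase (421 bases), had 74.0, 53.5, 54.5, 52.2 and 67.6 FPKM in TubKO kidneys and 27.9, 32.5, 34, 38.6 and 33.3 FPKM in Ctrl kidneys. The lowest TubKO kidney was well above the highest Ctrl kidney, and the log2 fold change was 0.83 (adjusted p 0.00239), or 0.59 (adjusted p 0.00873) with the length trend removed. *Ndufb5*, an accessory subunit of complex I (1079 bases), had 22.7, 26.9, 25.6, 25.6 and 20 FPKM in TubKO kidneys and 10.5, 13.0, 12.7, 18.6 and 13.6 FPKM in Ctrl kidneys (0.79, adjusted p 0.0123, and 0.0410 with the trend removed). *Ndufa2*, also of complex I (572 bases), averaged 202 ± 29.0 FPKM in TubKO and 124 ± 13.8 FPKM in Ctrl (0.70, adjusted p 0.00432, and 0.0130 with the trend removed). Of the 11 subunits that passed in both fits, 8 also passed with lengths weighted by FPKM, and *Ndufab1*, *Ndufb2* and *Atp5g1* did not. *Atp5g1*, the c subunit of ATP synthase, shows the difference: its longest transcript, Atp5g1-201 of 4715 bases, averaged 9.38 ± 0.783 FPKM in TubKO and 8.02 ± 0.768 FPKM in Ctrl, whereas Atp5g1-202 of 596 bases averaged 191 ± 17.8 FPKM in TubKO and 129 ± 26.7 FPKM in Ctrl (SD, n = 5 each). The log2 fold change of the gene was 0.47 as deposited, 0.54 (adjusted p 0.0393) with the trend over longest transcripts removed and 0.33 (adjusted p 0.105) with the weighted length. *Atp5k*, *Cox7a1* and *Uqcr10* rose as deposited (0.47, 0.53 and 0.46) and did not pass with the trend removed (adjusted p 0.327, 0.309 and 0.0673).

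**Figure D4:**
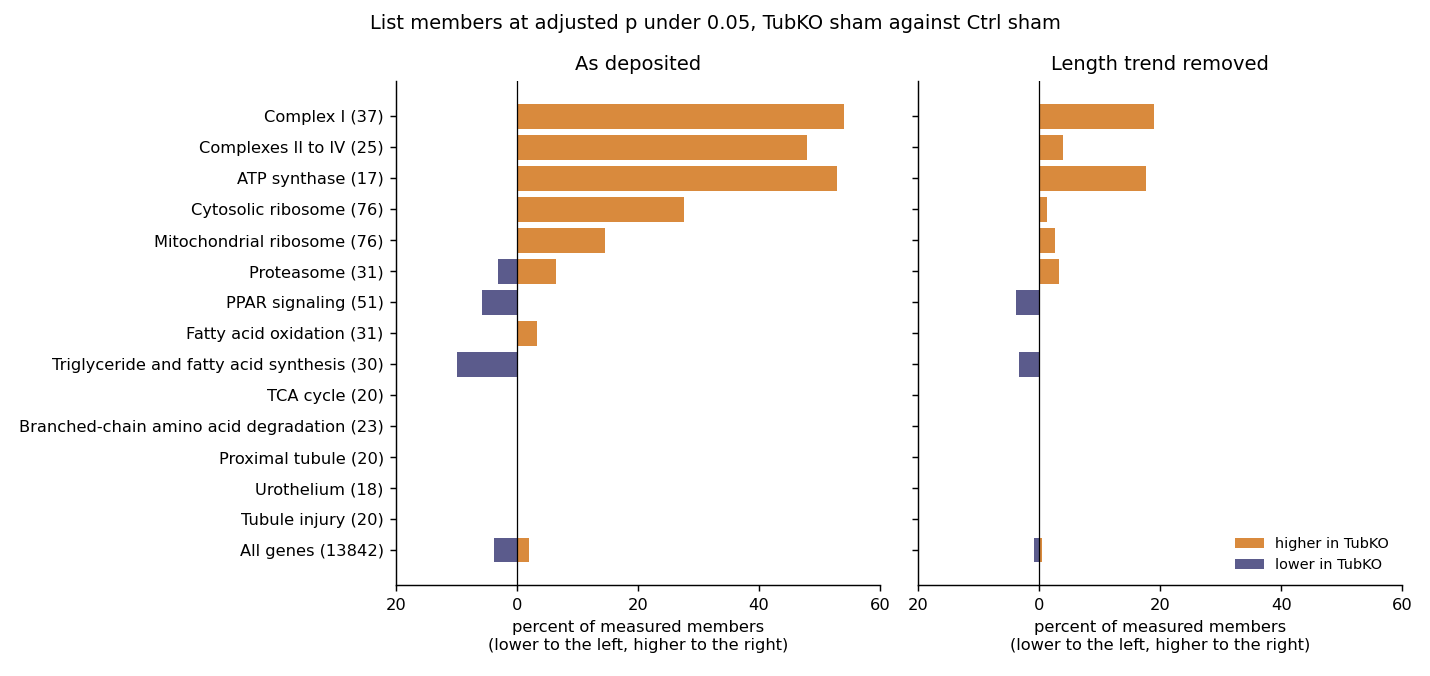
Share of the measured members of each list (number in brackets) at adjusted p under 0.05, lower in TubKO to the left of 0 and higher to the right, as deposited and with the length trend removed. For the respiratory chain 20, 12 and 9 members rose as deposited in the 3 lists, and 7, 1 and 3 with the trend removed.

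Among the other genes that rose, *Hao2*, a peroxisomal hydroxyacid oxidase, had 199, 228, 257, 248 and 265 FPKM in TubKO kidneys and 148, 140, 121, 113 and 129 FPKM in Ctrl kidneys. It had the largest rise among genes called in both fits without overlap (0.88, standard error 0.20, adjusted p 0.0193, and 0.0445 with the length trend removed), and it lost its call without TubKO mouse 5 (adjusted p 0.0576). *Gamt*, the methyltransferase that completes creatine synthesis, had 17.8, 20.1, 15.7, 14.1 and 19.5 FPKM in TubKO kidneys and 5.86, 8.26, 12, 11.7 and 9.73 FPKM in Ctrl kidneys (0.84, adjusted p 0.0105, and 0.0300 with the trend removed). *Dio1*, the deiodinase that turns thyroxine into its active form, had 20, 15, 21.1, 20.7 and 16 FPKM in TubKO kidneys and 9.99, 9.77, 10.1, 12 and 12.5 FPKM in Ctrl kidneys (0.71, adjusted p 0.0133, and 0.0386 with the trend removed). None of these 3 overlapped between the groups. *Prkag3*, a regulatory subunit of the AMP-activated kinase, was low, at 2.78 ± 0.866 FPKM in TubKO and 1.24 ± 0.430 FPKM in Ctrl (0.74, adjusted p 0.0172, and 0.0317 with the trend removed), and lost its call without TubKO mouse 5 (adjusted p 0.0562). The long matrix genes *Lamc3*, a laminin chain, and *Col14a1*, a fibril-associated collagen, rose against the length trend: they had log2 fold changes of 0.60 and 0.56 as deposited and of 0.69 and 0.67 with the trend removed (adjusted p 0.0445 and 0.0421). Leaving out 8 of the 10 sham kidneys in turn ended the call of *Lamc3* (adjusted p up to 0.104), and 6 that of *Col14a1* (adjusted p up to 0.101). *Tesc*, *Sertad1*, *Cuta*, *Copz2* and *Sac3d1* rose by 0.51 to 0.67 on the log2 scale without overlap and kept their calls with any 1 sham kidney left out.

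Genes that differ between the sexes in mouse kidney were examined because *Cyp4a12a* and *Hao2* are among them. Of 20 genes higher in male kidney, 2 fell, the *Cyp4a12* copies, none rose, and the median was -0.05. Of 15 measured genes higher in female kidney, 2 rose, *Hao2* and *Prlr*, none fell, and the median was 0.08. Over all genes 1.94% rose and 3.89% fell. The lists hold the genes that prompted them, and the values of the *Cyp4a12* copies are not independent, so these counts are not separate results. *Prlr*, the prolactin receptor, varied within both groups, with 2.59, 6.47, 5.78, 8.84 and 7.82 FPKM in TubKO kidneys and 1.47, 3.12, 0.368, 3.54 and 0.366 FPKM in Ctrl kidneys. TubKO mouse 1 lay within the Ctrl range, and the log2 fold change was 1.5 (adjusted p 0.0377, and 0.0520 with the length trend removed). Leaving out 7 of the 10 sham kidneys in turn ended this call (adjusted p up to 0.0991). *Kap*, the most abundant androgen-dependent RNA of the proximal tubule, averaged 17984 ± 4232 FPKM in TubKO and 14577 ± 3175 FPKM in Ctrl (adjusted p 0.651).

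Few stress and response genes passed, against 1.94% of all genes that rose and 3.89% that fell. Of 27 heat shock and endoplasmic reticulum stress genes 1 rose, *Creld2* (0.72, adjusted p 0.0411, and 0.123 with the length trend removed), and 1 fell, *Asns* (-0.63, adjusted p 0.0464, and 0.0655 with the trend removed). Of 20 clock genes 1 fell, the receptor *Rora* (-0.23, adjusted p 0.0335, and 0.643 with the trend removed). The values of the 20 clock genes ran from -0.56 to 0.98, with a median of 0.19. In glycine, serine and creatine metabolism, *Gamt* rose and the choline dehydrogenase *Chdh* fell (-0.40, adjusted p 0.0385, and 0.118 with the trend removed) among 27 measured genes. The calls of *Creld2*, *Asns*, *Rora* and *Chdh* ended when any 1 of 8, 9, 8 and 7 of the sham kidneys was left out. None of 21 immediate early genes, 27 interferon-stimulated genes, 19 genes of antigen presentation or 8 measured acetyltransferases of the Nat8 family passed in either direction. Of the Nat8 family, whose median was 0.36, *Nat8f1* averaged 199 ± 28.5 FPKM in TubKO and 116 ± 50.4 FPKM in Ctrl, where Ctrl mouse 1 had 37.2 FPKM (adjusted p 0.176).

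Markers of tubule cells were abundant in every sham kidney. Proximal tubule markers summed to between 18205 and 28068 FPKM in TubKO and to between 15665 and 24426 FPKM in Ctrl kidneys, and none of the 20 passed, with a median of 0.06. No marker of the loop of Henle (11), the distal and connecting tubule (11), principal cells (11), smooth muscle (10), macrophages (19), lymphocytes (11 for T and NK cells, 4 for B cells) or neutrophils (5) passed. Of the distal markers, *S100g* had a value of 0.64 (adjusted p 0.0656) and *Klk1* of 0.55 (adjusted p 0.255), both without overlap between the groups. With the sham kidneys alone both rose (adjusted p 0.0441 and 0.0331), and with upper quartile rescaling *S100g* did (adjusted p 0.0476). With the length trend removed neither passed, at 0.41 (adjusted p 0.264) for *S100g* and 0.40 (adjusted p 0.490) for *Klk1*. The distal list summed to between 2664 and 3128 FPKM in TubKO and to between 1706 and 2274 FPKM in Ctrl kidneys, without overlap. *Klk1* and *S100g* were its most abundant members, so the sum mostly repeats them. The transcript Klk1-201 averaged 1945.9 FPKM in TubKO and 1338.5 FPKM in Ctrl, and S100g-201 averaged 805 and 521 FPKM. Of the 11 distal markers 4 had a value under 0, and the median was 0.15. The part of these cells in the gene results was not tested. Single markers passed in other types: *Atp6v1g3* of intercalated cells rose by 0.40 (adjusted p 0.0231), *Esam* of endothelium by 0.38 (adjusted p 0.0411), and *Vim* and *Col6a1* of fibroblasts by 0.56 and 0.48 (adjusted p 0.0370 and 0.0427). None of these 4 passed with the length trend removed (adjusted p 0.0581 to 0.124), and each lost its call when any 1 of 4 to 8 sham kidneys was left out. *Fech*, which inserts iron into haem and stood in the red blood cell list, fell by 0.33 on the log2 scale (adjusted p 0.0298, and 0.0426 with the trend removed), and lost its call when any 1 of 6 sham kidneys was left out.

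No marker of tissue beside the kidney passed. Of 18 urothelial markers 17 had a value under 0 (median -0.57), and they summed to between 33.2 and 81.4 FPKM in TubKO and to between 57.9 and 145 FPKM in Ctrl kidneys. *Sprr1a* was the most abundant, at 12.5 ± 5.80 FPKM in TubKO and 33.5 ± 16.6 FPKM in Ctrl (adjusted p 0.0656). Perirenal fat markers summed to between 30.6 and 80.6 FPKM in TubKO and to between 26.9 and 66.5 FPKM in Ctrl kidneys, with 10 of 11 measured values under 0 (median -0.30) and none that passed. Of 5 measured adrenal markers 2 were at 0 in every sham kidney, and the list summed to at most 0.410 FPKM in TubKO and 0.418 FPKM in Ctrl. The 2 measured skeletal muscle markers summed to at most 1.84 FPKM in TubKO and 1.63 FPKM in Ctrl. The part of urothelium and fat in the gene results was not tested. Ctrl mouse 3 stood apart in tubule injury genes, of which none of 20 passed: *Spp1*, the osteopontin gene, had 1059 FPKM in it and 271 to 363 FPKM in the other Ctrl kidneys, against 361 to 486 FPKM in TubKO kidneys. Without Ctrl mouse 3, 127 genes rose and 240 fell, and 24 respiratory chain subunits rose.

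Most differences seen in sham kidneys were not called between the genotypes after UUO, where the contrast uses 10 other kidneys. In UUO kidneys 357 genes were higher in TubKO (2.58%) and 425 lower (3.07%). Of the 269 genes that rose in sham kidneys 9 also rose in UUO kidneys (3.35% of the sham list and 2.52% of the UUO list), and of the 539 that fell 52 also fell (9.65% and 12.2%), while 1 that fell in sham rose in UUO. Of the 44 genes that rose and 108 that fell in both fits without overlap, 3 and 19 were called the same way in UUO kidneys (6.82% and 17.6%). The difference between the 2 contrasts, tested as an interaction, passed for 4 genes in all (0.0289%), and for 2171 genes (15.7%) at an unadjusted p under 0.05.

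The genes that fell kept their direction after UUO more often than those that rose: 14 of the 15 named falls had a negative value in UUO kidneys and 6 passed, whereas 10 of the 15 named rises had a positive value and none passed. This difference between rises and falls was not itself tested. *Gpam* had the same size of change, with 1.79 ± 0.481 FPKM in TubKO UUO and 4.34 ± 1.2 FPKM in Ctrl UUO kidneys (-0.93, adjusted p 0.0149). *Ppara* stood at 1.15 ± 0.452 FPKM in TubKO UUO and 2.23 ± 0.603 FPKM in Ctrl UUO kidneys (-0.59, adjusted p 0.0486), and *Pdpr*, *Alg10b*, *Zc3h12c* and *Tcf24* also fell, by 0.62, 0.62, 0.39 and 0.32. The other receptors of the family, *Ppard* and *Pparg*, fell in UUO kidneys alone by the test, at -0.89 and -1.0 (adjusted p 0.0424 and 0.0349), but the difference from sham kidneys did not pass (adjusted interaction p 0.417 and 0.239). *Acaca* fell in both (-0.32 in UUO kidneys, adjusted p 0.00970), and *Atp6v1g3* and *Esam* rose in both (0.44 and 0.47, adjusted p 0.0168 and 0.0187). *Cyp4a12a* was low in both genotypes, at 5.19 ± 2.56 FPKM in TubKO UUO and 8.72 ± 4.44 FPKM in Ctrl UUO kidneys (adjusted p 0.190). Of the named genes *Atp5e* alone passed the interaction test: its UUO value was -0.20 (adjusted p 0.262), a difference of -1.04 from its sham value (adjusted p 0.0167). The interaction test used deposited values, with the length trend left in, and *Atp5e* is a short transcript of 421 bases. *Hao2* averaged 71.3 ± 23.3 FPKM in TubKO UUO and 75.1 ± 21.3 FPKM in Ctrl UUO kidneys, and its interaction did not pass (adjusted p 0.130).

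**Figure D5:**
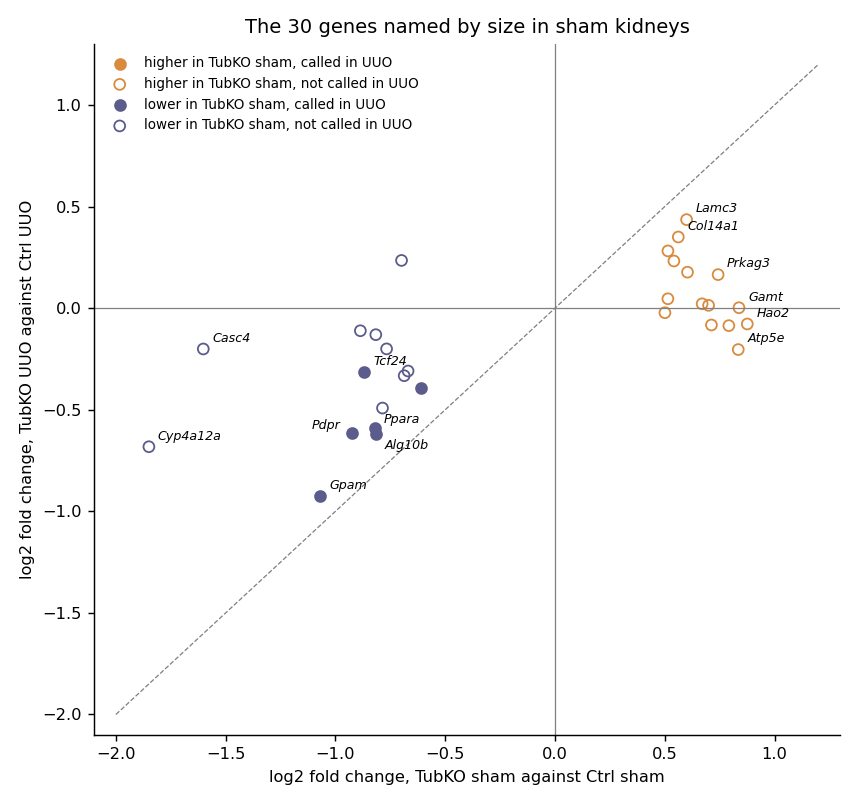
Log2 fold change of TubKO against Ctrl in sham kidneys (horizontal) and in UUO kidneys (vertical) for the 30 genes named by size, filled where the UUO value is at adjusted p under 0.05, with the line of equal change dashed. Filled points occur for 6 genes that fell, Gpam lies nearest the dashed line among them, and no gene that rose is filled.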

How the data were processed

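RNA from the left kidneys of 20 male mice was sequenced, 5 in each of 4 groups: TubKO sham, Ctrl sham, TubKO UUO and Ctrl UUO. Total RNA was extracted with TRIzol and enriched for polyadenylated RNA, and stranded libraries were made. The authors trimmed reads with cutadapt, aligned them with HISAT2 to GRCm38, estimated abundances with StringTie and deposited FPKM per gene and per transcript from Ballgown; versions are not given in the sources used here. The deposited FPKM hold no counts, so the depth per sample is unknown and no counting interval is given. The tables hold 13842 genes, none with a mean under 0.501 FPKM in its highest group, and 26228 transcripts. Gene FPKM are not sums of transcript FPKM. Of the gene identifiers 13822 match GENCODE vM21, from which lengths and coding sequences were read. The length of a gene is that of its longest transcript.

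Values were analysed as log2(FPKM + 1) with no filter. limma 3.58.1 in R 4.3.3 estimated a mean for each group from all 20 kidneys together, using eBayes with a variance trend, and p-values were adjusted by Benjamini-Hochberg over all genes; the threshold was 0.05. Fold changes on this scale understate those of low genes. The length trend was removed per library by a linear fit on log2 length. Single values were compared with exact two-sided permutation tests. The fit was tested on simulated data. The other tables were made in Python 3.11.15 (numpy 2.4.6, pandas 2.3.3) and the plots in matplotlib 3.10.9. Each replicate is 1 mouse, numbered here in the order of the records. The 5 TubKO sham kidneys carry 3 full identifier numbers and the 5 Ctrl sham kidneys 2, each within 1 group; if a number marks a shared cage or litter, which is not stated, the kidneys are not independent and the p-values are too small. In either case p-values measure only the spread between these kidneys.

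Genes are named by this rule: *Kdm6a* and its complexes; in each direction the 15 largest changes among genes that passed in both fits without overlap; from each list up to 5 members that passed or, where none did, up to 3 of the most abundant; and genes that the study names for these kidneys. Members and lists were chosen with earlier results of these data known. Genes outside the rule are named as such. Alternatives were another pseudocount, a filter at 1 FPKM, sham kidneys alone, removal of the length trend, 2 rescalings, an F-test after Ballgown, the identifier series as a covariate, values within the higher series and each kidney left out. Removal of length and GC trends, and of the length trend with sham kidneys alone or with FPKM-weighted lengths, and a correlation among kidneys that share a full number, were chosen after seeing the data. Results for 2 genes are not reported here.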

Additional observations from a re-analysis of the deposited data

Results flagged for a closer look

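In 196 groups of 5 sham kidneys of named genes, 10 had a kidney far from the other 4, by a rule that chance meets in about 1 of 20 groups. In TubKO kidneys these were mouse 3 for *Ash2l* (2.31 FPKM) and *Jarid2* (5.64 FPKM) and mouse 1 for *Ezh2* (0.980 FPKM). In Ctrl kidneys they were mouse 1 for *Atp5k* (186 FPKM), *Esam* (5.65 FPKM) and *Fech* (80.1 FPKM), mouse 3 for *Aebp2* (3.55 FPKM), mouse 4 for *Suz12* (3.83 FPKM) and *Cox7b* (223 FPKM), and mouse 5 for *Zfp871* (4.98 FPKM).

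The genotype effect on *Atp5e* differed between UUO and sham kidneys by -1.04 on the log2 scale, by a test of the difference itself (limma interaction, adjusted p 0.0167). All 5 TubKO sham kidneys were above all 5 Ctrl sham kidneys for this gene. The test of the difference used deposited values, with the length trend left in.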

How the results depend on the processing

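No direction turned round for the 74 named genes that passed. With the 10 sham kidneys alone 113 genes rose and 157 fell, with quantile normalization 117 and 164, with the identifier series as a covariate 112 and 249, with the length trend removed 56 and 131, with FPKM-weighted lengths 49 and 126, with length and GC trends removed 54 and 125, with the length trend removed and sham kidneys alone 4 and 8, and in the F-test after Ballgown 3 and 12. Upper quartile rescaling gave 456 that rose. Respiratory chain subunits that rose numbered 25, 16, 26, 11, 8, 12, 1 and 1 in those settings. At the study threshold a pseudocount of 0.1 gave 237 higher and 309 lower genes, FPKM-weighted lengths 55 higher, removal of the length trend with or without GC 57 higher and the F-test 58 lower. PPAR genes that fell numbered 5 with the filter, 1 with the length trend removed and sham kidneys alone and 0 in the F-test, where 2327 genes had an unadjusted p under 0.05. *Kdm6a* passed with a pseudocount of 0.1 (-0.76), the filter (-0.48) and upper quartile rescaling (-0.48).

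With each kidney left out, 58 to 406 genes rose, 127 to 684 fell, 75 to 137 were higher and 90 to 141 lower at the study threshold, 16 to 46 respiratory chain subunits rose, 2 to 6 PPAR genes fell and *Kdm6a* ran from -0.55 to -0.43. Of 74 named genes that passed, 36 to 70 passed with each kidney left out, 42 with sham kidneys alone, 39 with the length trend removed, 36 with FPKM-weighted lengths, 67 with a correlation (estimated at 0.0258) among kidneys that share a full number, 47 with the series covariate and 1 in the F-test. No setting ended the calls of 21 genes that rose and 66 that fell, over 20 settings without the F-test and the strictest. That correlation gave 223 rises and 440 falls. Among mice of the higher series, where values were compared without a test, 54 of the 74 named calls were classed as kept in value and 20 as moved. No paired analysis was possible because the replicate numbers only follow the order of the records. FPKM without counts hide the depth behind low values.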

Other observations

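In the strictest setting, with the length trend removed and the 10 sham kidneys alone in the fit, 4 genes rose and 8 fell. Beside *Ncoa2*, *Tcf24*, *Cyp4a12a*, *Hao2*, *Atp5e* and *Dgkg*, these were genes outside the naming rule, given here after their values were seen. *Malt1*, a protease of lymphocyte signaling, *Elf1*, a transcription factor of the ETS family, *Slc35e2* and *Erlec1* fell, with limma adjusted p in that fit of 0.0191, 0.0409, 0.0206 and 0.0466. *Tnxb*, a matrix protein of connective tissue, and *Abcc9*, a subunit of ATP-sensitive potassium channels found in vessel walls, rose (adjusted p 0.0354 and 0.0450).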
